A study of Mus musculus with 4 samples.

Results

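Decorin (Dcn) and 7 other small leucine-rich proteoglycans (SLRPs) were followed in scRNA-seq of pancreatic tumors grown from grafted KPC cells: biglycan (Bgn), asporin (Aspn), lumican (Lum), fibromodulin (Fmod), prolargin (Prelp), osteoglycin (Ogn) and podocan (Podn). The 8 genes were chosen by symbol, as decorin is the protein that the peptide D-CAN is directed at, and they are 8 of the 32285 genes listed. The study asked what happens to a tumor when either of 2 stromal populations is depleted. In Pdgfrb-TK mice, which carry a viral thymidine kinase under the Pdgfrb promoter, ganciclovir (GCV) kills dividing cells that express Pdgfrb. D-CAN carries a sequence that binds decorin lacking its sugar chain on adipose stromal cells, joined to a part that kills the cell it enters. Each of the 4 conditions gave 1 library: Pdgfrb-TK mice with GCV (Pdgfrb-TK/GCV) or PBS (Pdgfrb-TK/PBS), and wild-type mice with D-CAN (D-CAN) or PBS (WT/PBS). All mice were C57BL/6 males fed a high-fat diet, the labels give 7 months as the age for every library (the study's methods state an older age at grafting, and which holds is not known here), and every mouse carried a graft of the same KPC line in the pancreas. The PBS mice received the vehicle only. The paper states that tumor cell suspensions were pooled by treatment, while each sample title names a tumor from a single mouse. Which holds is not known here. Either way there is 1 library on each side of every comparison, no test and no p-value, and cells were not used as replicates. Intervals are at 95% and cover counting error only.

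SLRPs are secreted proteins whose cores are built of leucine-rich repeats. Most of them bind collagen and set how collagen fibrils assemble, and several bind growth factors or their receptors. Decorin, biglycan and asporin form a first class, of which decorin and biglycan carry chondroitin or dermatan sulfate chains. Fibromodulin, lumican and prolargin form a second, of which fibromodulin and lumican can carry keratan sulfate. In pancreatic cancer, cancer-associated fibroblasts (CAFs) are the main source of the collagen-rich stroma, and they include inflammatory CAFs (iCAFs), which secrete cytokines and complement, and myofibroblastic CAFs (myCAFs), which are contractile and deposit matrix.

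Each cell with at least 200 genes was put in the class whose markers it showed most, and none of the 8 genes was a marker. The libraries kept 12280, 10469, 10178 and 11627 cells (the GCV-treated Pdgfrb-TK mice, their PBS controls, the D-CAN mice and lastly the wild-type PBS mice, the order used wherever 4 values are given), with a median of 6950, 5203, 4514.5 and 7421 unique molecular identifiers (UMIs) per cell. Any pair of libraries shared 26 to 42 cell barcodes. Fibroblast-marker cells numbered 239, 443, 1149 and 1794, or 1.95%, 4.23%, 11.3% and 15.4% of the cells. All 10 fibroblast markers were detected among them in each library. Pericyte-marker cells numbered 1, 16, 22 and 46. Since the labels' extraction protocol is written for nuclei from a different organ, cells were identified by markers alone. Cells with too few markers for any class made up 25.5% of the D-CAN library against 13.8% of WT/PBS, with 44.3% and 24.1% of their UMIs from mitochondrial genes, and their part in the results was not tested.

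Several of the 8 genes are chromosomal neighbors. In mm10, Dcn lies on the plus strand at chr10:97479609-97518143 and Lum follows it after 47.0 kb at chr10:97565128-97572703, with no protein-coding gene between them. Aspn (chr13:49544443-49567565) and Ogn (chr13:49608046-49624501) are 40.5 kb apart, with the SLRP gene Omd between them. Prelp (chr1:133910304-133921414, minus strand) and Fmod (chr1:134037254-134048277, plus strand) are 116 kb apart, with no protein-coding gene between. Bgn is at chrX:73483602-73495933 and Podn at chr4:108014791-108096445. Both pairs on chromosomes 13 and 1 differed in opposite directions between D-CAN and WT/PBS in fibroblast-marker cells, as described further on. Fmod stayed within 2-fold there (0.518), and its fold was 0.963 when averaged with the fibroblast subset shares of WT/PBS. Aspn was 1.66-fold higher in D-CAN against Pdgfrb-TK/PBS. Whether promoter sequence bears on these directions was not tested. The 250 bases before the start site of these 4 genes are shown, from RefSeq on GRCm38.p6, 5′ to 3′ on each gene's own strand. They span chr13:49607765-49608014 (Ogn), chr13:49544193-49544442 (Aspn), chr1:133921402-133921651 (Prelp, minus strand) and chr1:134037004-134037253 (Fmod). Capitals mark matches on either strand to a TATA box (TATAAA) and to a TEAD motif (GGAATG); a GC box (GGGCGG) and the SRF CArG box were searched too and gave no match in these 4.
Ogn: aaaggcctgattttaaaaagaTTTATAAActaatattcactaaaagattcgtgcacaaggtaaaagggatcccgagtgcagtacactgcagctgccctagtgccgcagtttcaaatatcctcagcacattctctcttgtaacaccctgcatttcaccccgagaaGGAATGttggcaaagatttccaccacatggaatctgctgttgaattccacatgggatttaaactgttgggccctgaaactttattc
Aspn: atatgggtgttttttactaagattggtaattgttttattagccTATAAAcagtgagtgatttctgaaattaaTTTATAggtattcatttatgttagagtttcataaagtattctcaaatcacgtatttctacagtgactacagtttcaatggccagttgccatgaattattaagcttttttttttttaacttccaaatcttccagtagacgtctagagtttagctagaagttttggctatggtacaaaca
Prelp: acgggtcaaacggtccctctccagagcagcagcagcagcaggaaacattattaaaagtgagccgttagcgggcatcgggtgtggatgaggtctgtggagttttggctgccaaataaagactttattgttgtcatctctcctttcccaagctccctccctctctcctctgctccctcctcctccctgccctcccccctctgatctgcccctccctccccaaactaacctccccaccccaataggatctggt
Fmod: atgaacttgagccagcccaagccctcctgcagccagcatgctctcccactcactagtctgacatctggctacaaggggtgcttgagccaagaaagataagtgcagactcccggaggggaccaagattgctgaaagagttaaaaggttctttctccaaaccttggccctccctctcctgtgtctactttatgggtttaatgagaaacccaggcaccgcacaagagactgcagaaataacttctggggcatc

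The Ogn and Aspn stretches are rich in A and T, with 42% and 30% G and C, and each holds TATAAA on both strands. These matches begin 229 and 227 bases before the start site in Ogn and 207 and 178 bases before it in Aspn. A match on the opposite strand reads TTTATA as printed, and the overlapping matches in Ogn form a single run of capitals. The Prelp and Fmod stretches hold 55.6% and 51.2% G and C and none of the 4 motifs. Over 32851 promoters of the same length, 12.4% hold TATAAA, 12.6% the TEAD motif, 32.7% the GC box and 1.47% the CArG box. By contrast, Bgn holds 3 GC boxes and the first of the 2 Podn promoters holds 2. A match is a run of letters and not evidence of binding.

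Dcn was a fibroblast transcript in all 4 libraries. In fibroblast-marker cells it stood at 2461, 2103, 2965 and 1345 CPM (the UMIs of a gene per 1000000 UMIs of the class). KPC tumor cells held 4.33, 4.08, 4.14 and 5.23 CPM, between 0.140% and 0.389% of the fibroblast level of the same library, and macrophages held 8.31, 7.77, 9.27 and 10.4 CPM. Fibroblast-marker cells carried 70.9%, 76.1%, 92.8% and 89.7% of all Dcn UMIs, and most of the rest lay in cells with markers of several classes. Cells with at least 2000 UMIs were also thinned to 2000 UMIs, and shallower cells were left out of all thinned values. This left out 14, 55, 195 and 249 fibroblast-marker cells. In the thinned cells, Dcn was detected in 84.4%, 83.8%, 80.5% and 73.7% of fibroblast-marker cells. In KPC tumor cells it was detected in 0.745%, 1.11%, 1.62% and 1.72%. Whether these UMIs came from free RNA, doublets or the KPC tumor cells themselves was not tested.

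Pericyte-marker cells held Bgn and Aspn but little of the other members. Over 85 pericyte-marker cells of the 4 libraries there were 6 Dcn UMIs, 3 Lum UMIs and 1 Ogn UMI, but 533 Bgn UMIs and 212 Aspn UMIs. Bgn, which binds collagen and can signal through Toll-like receptors, stood at 780, 1146 and 944 CPM in the pericytes of the Pdgfrb-TK/PBS, D-CAN and, last, WT/PBS libraries. Aspn, a relative of decorin that lacks the sugar chain and binds TGF-β, stood at 328, 551 and 317 CPM there, above its fibroblast level of 45.4, 75.2 and 208 CPM in the same libraries. As cells that showed many fibroblast markers could not enter the pericyte class, pericytes with much collagen are outside these counts.

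Endothelial cells held Bgn as well. Bgn stood at 154, 88.9, 175 and 103 CPM in endothelial-marker cells, against Dcn at 4.06, 6.20, 40.3 and 34.0 CPM. The endothelial level of Bgn was thus 7.996%, 4.14%, 5.42% and 2.95% of its fibroblast level, and that of Dcn 0.165%, 0.295%, 1.36% and 2.53%. Bgn in KPC tumor cells was at 4.35, 5.53, 8.36 and 19.6 CPM.

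**Figure D1:**
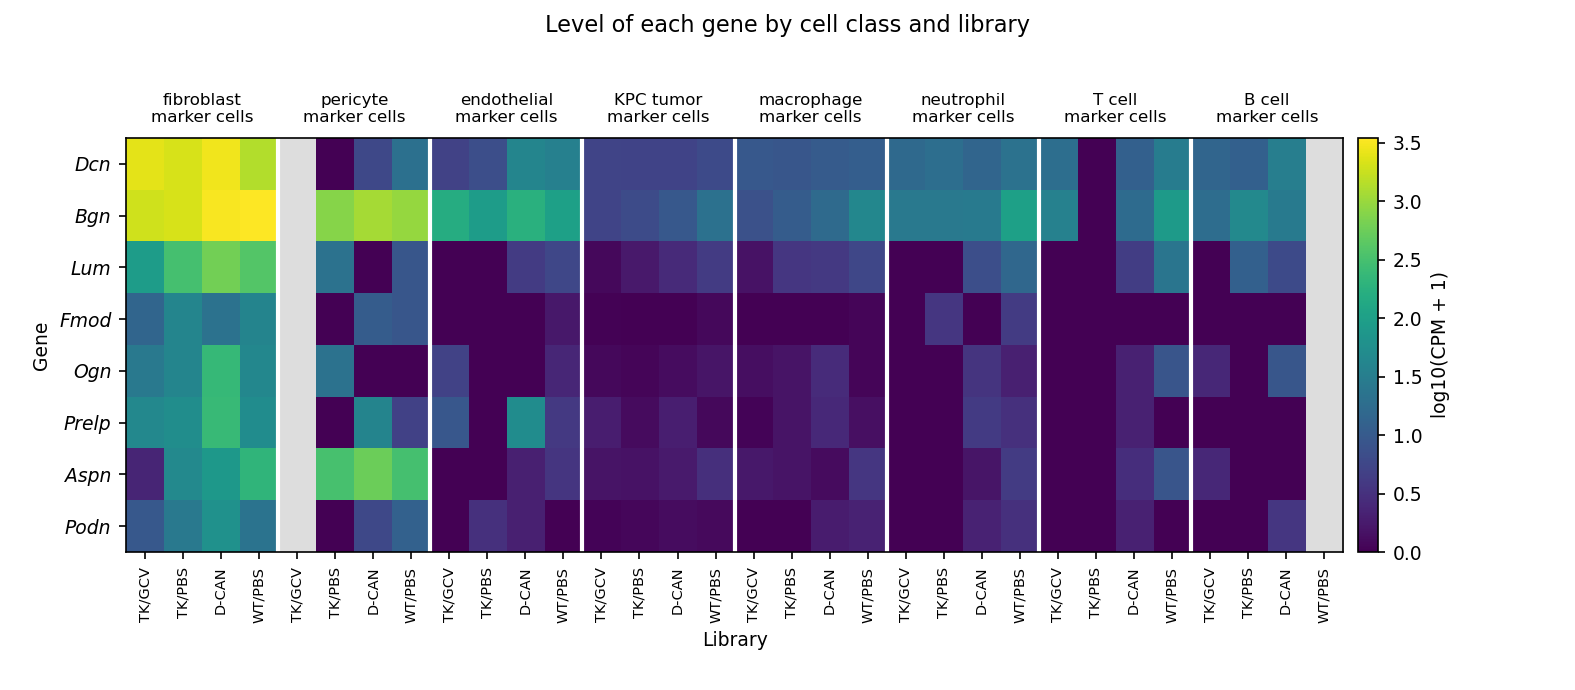
Level of the 8 genes, as log10(CPM + 1), by cell class and library, with classes of under 10 cells in grey. Among classes of at least 10 cells all genes are highest in fibroblast-marker cells except Aspn, which reaches 317 to 551 CPM in pericyte-marker cells, and Bgn is the member seen most in pericytes and endothelial cells.

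Between D-CAN and WT/PBS, Dcn was 2.21-fold higher in fibroblast-marker cells (interval 2.17 to 2.24), at 2965 against 1345 CPM. The make-up of the fibroblasts differed too, and whether it led to the Dcn difference was not tested. iCAF-marker cells made up 44.6% of the fibroblast-marker cells after D-CAN (interval 41.7 to 47.5) against 5.07% for WT/PBS (4.10 to 6.19), while myCAF-marker cells were 34.7% and 85.2%. In the Pdgfrb-TK libraries the iCAF share was 25.1% after GCV and 21.4% with PBS. A cell took only the subset with most markers, so these shares depend on the other subsets' markers too. Fibroblast-marker cells with at least 4 iCAF markers, whatever their subset, were 23.0%, 9.71%, 52.0% and 18.2%. Those with at least 4 myCAF markers were 40.2%, 37.2%, 37.8% and 81.4%. Cells were not matched for depth in these counts.

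Dcn varied less between the libraries within a subset than between the subsets. In iCAF-marker cells it was 4085, 4234, 4789 and 5249 CPM. In myCAF-marker cells it was 1582, 1201, 1252 and 1137 CPM, below the lowest iCAF value in every library. D-CAN to WT/PBS, the fold was 0.912 in iCAFs (interval 0.886 to 0.940) and 1.10 in myCAFs (1.07 to 1.13). When the subset levels of D-CAN were averaged with the subset shares of UMIs of WT/PBS, the fold in all fibroblast-marker cells went from 2.21 to 1.08.

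The subsets were cut by counts of markers, and not all cells lay far from the cut. A single marker decided for 51 of 512 iCAF-marker cells in D-CAN but for 39 of 91 in WT/PBS, where the median cell held 6 iCAF and 3 myCAF markers. With class, subset and level all taken from cells thinned to 2000 UMIs, Dcn stood at 3726, 4878, 5246 and 5835 CPM in iCAFs and at 1306, 1233, 1226 and 1168 CPM in myCAFs. The order of the libraries in iCAFs was the same as without thinning, and the myCAF values lay closer together. Scaling bears on the iCAF fold: all genes with at least 50 UMIs had a median log2 ratio of 0.51 there, so that against the median gene the Dcn fold was 0.640. With minimums of 200 and 1000 UMIs the iCAF median was 0.39 and 0.24, and the Dcn fold 0.696 and 0.775. In myCAFs, with the minimum of 50, the median log2 ratio was 0.13 and the Dcn fold against the median gene was 1.01. KPC tumor markers summed to 466 CPM in the fibroblast-marker cells of D-CAN and 1267 CPM in those of WT/PBS, while pericyte markers summed to 292 and 168 CPM. B cell markers, 7 of 10 detected in both, summed to 946 and 367 CPM; that list holds Ebf1, which fibroblasts also express. Mesothelial markers summed to 256 and 139 CPM, and the part of these lists in the values was not tested.

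**Figure D2:**
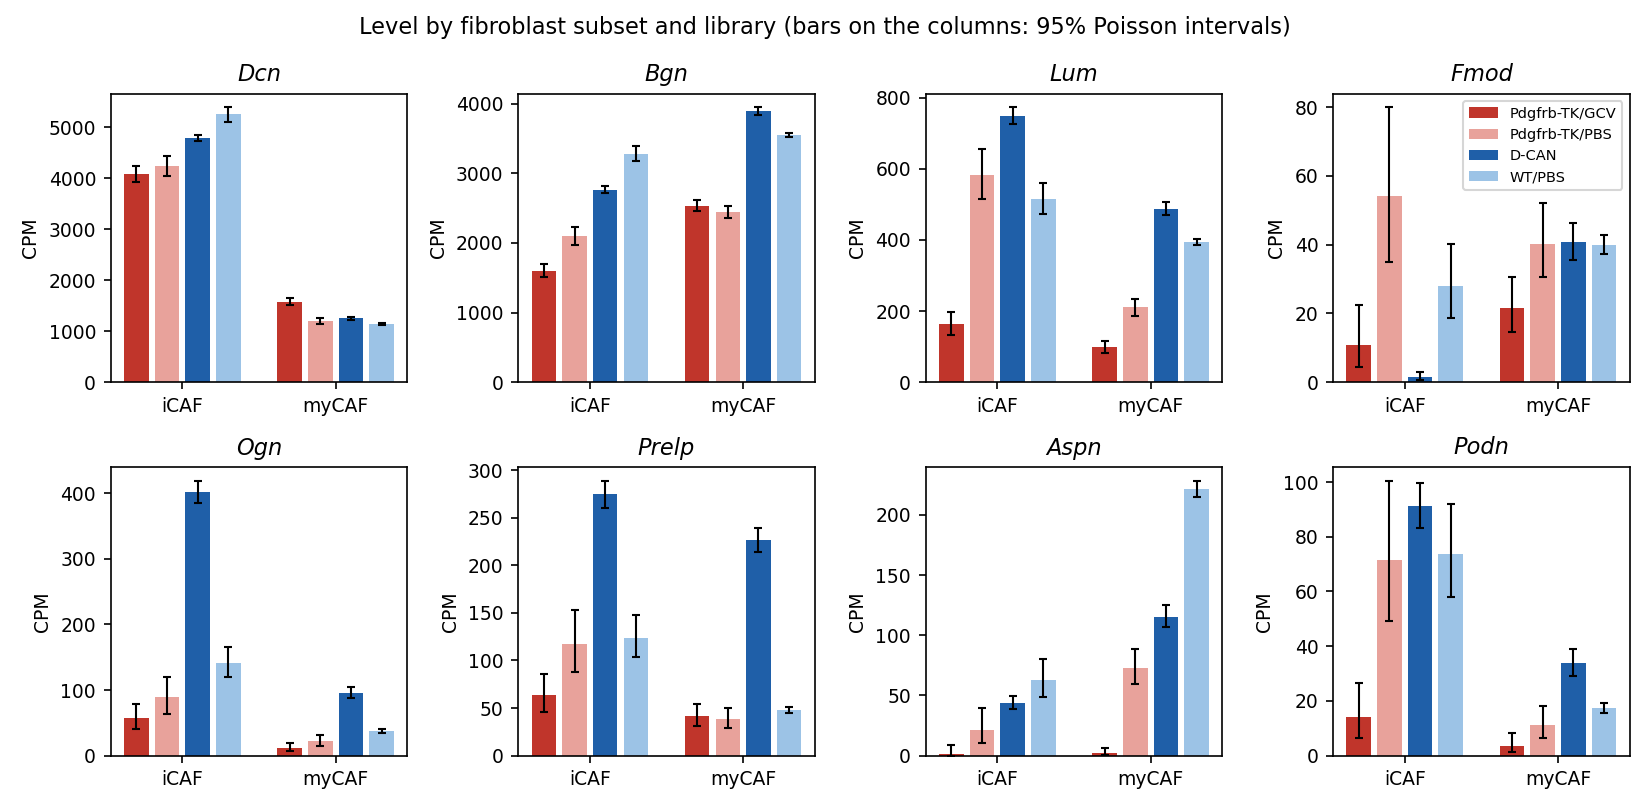
CPM of each gene in iCAF-marker and myCAF-marker cells of the 4 libraries, with 95% Poisson intervals. Dcn is at 4085 to 5249 CPM in iCAFs and 1137 to 1582 CPM in myCAFs in every library, while Ogn and Prelp are highest in D-CAN in both subsets.

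Single cells differed in how much Dcn they held. In cells thinned to 2000 UMIs, the median fibroblast-marker cell held 3, 4, 4 and 2 Dcn UMIs. Cells with 10 or more Dcn UMIs made up 19.6%, 15.5%, 24.2% and 4.85% of fibroblast-marker cells, so D-CAN had 4.99 times the share of WT/PBS (interval 3.83 to 6.56). Within iCAF-marker cells the same share was 35.0%, 41.8%, 43.3% and 49.4%, and within myCAF-marker cells it was 9.47%, 1.55%, 3.14% and 1.66%. Of the cells with 10 or more Dcn UMIs, iCAF-marker cells were 21 of 44, 38 of 60, 206 of 231 and 43 of 75, so they were the larger part in every library except Pdgfrb-TK/GCV.

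**Figure D3:**
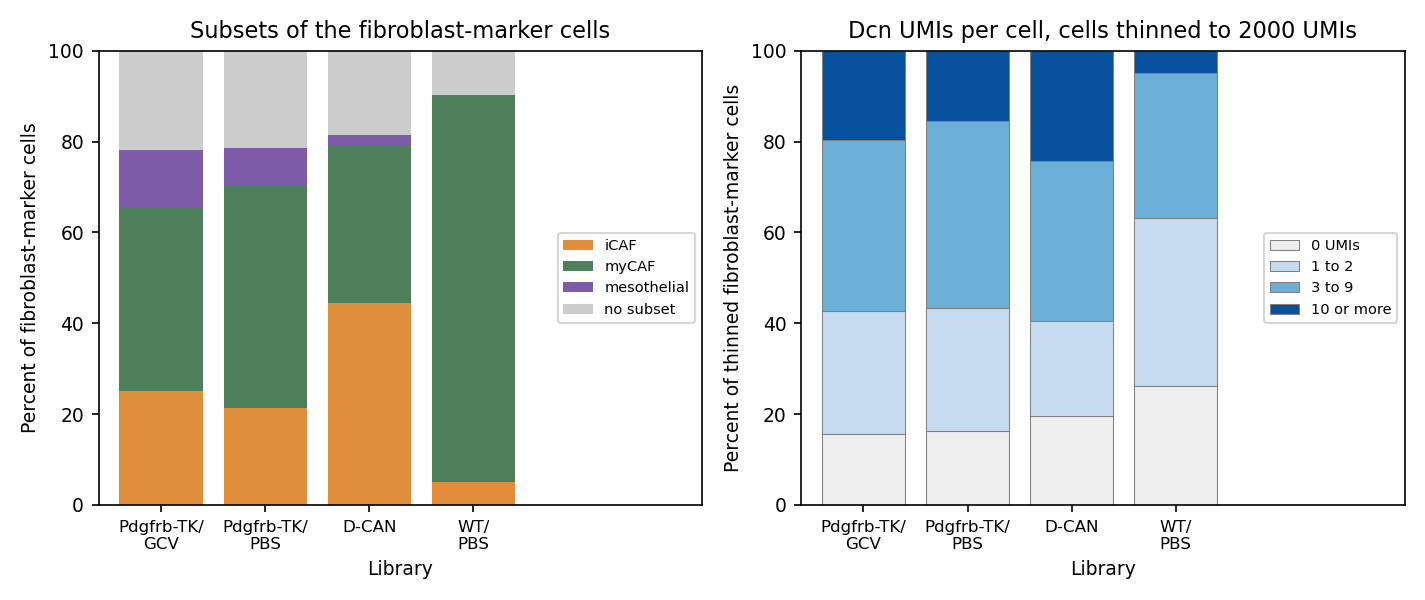
Left, percent of fibroblast-marker cells in each subset by library. Right, percent of fibroblast-marker cells with at least 2000 UMIs by Dcn UMIs after thinning to 2000 UMIs. The iCAF share is 44.6% with D-CAN against 5.07% for WT/PBS, and the share of cells with 10 or more Dcn UMIs is 24.2% and 4.85%.

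D-CAN is directed at cells that show decorin and GCV at cells that express Pdgfrb, so cells that hold much Dcn and cells that hold both transcripts were counted. Among all thinned cells (9050, 7592, 7469 and 9052, without the shallower cells), those with 10 or more Dcn UMIs were 0.586%, 0.856%, 3.17% and 0.895%. The D-CAN library held 3.55 times the share of WT/PBS (interval 2.74 to 4.62). The contrast depended on the cut. Cells with at least 3 Dcn UMIs were 1.77%, 3.41%, 7.87% and 6.65%, and D-CAN held 1.18 times the share of WT/PBS (1.05 to 1.33). Cells with at least 3 Dcn UMIs and 1 Pdgfrb UMI were 0.188%, 0.606%, 2.37% and 1.39% of all thinned cells, 1.70 times as many in D-CAN as in WT/PBS (1.35 to 2.16) and 0.310 times as many in Pdgfrb-TK/GCV as in Pdgfrb-TK/PBS (0.167 to 0.551). None of the 2598 and 3662 thinned KPC tumor cells of D-CAN and WT/PBS held both in their 2000 UMIs, where 3 counts of the total would be 0.115% and 0.0819% and the upper Clopper-Pearson bounds are 0.142% and 0.101%. These bounds are on cells in which both were counted, not on cells that express both. The counts are of RNA; the decorin protein and its sugar chain were not measured. Pdgfrb, the receptor for PDGF-B, stood at 55.1, 228, 245 and 148 CPM in fibroblast-marker cells.

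Bgn, the most abundant SLRP transcript of myCAFs, differed little between D-CAN and WT/PBS. It stood at 1928, 2147, 3232 and 3478 CPM in fibroblast-marker cells, and D-CAN to WT/PBS the fold was 0.929 (interval 0.918 to 0.941). The direction turned with the subset shares of WT/PBS (1.09) and against Pdgfrb-TK/PBS, where D-CAN was 1.51-fold higher (1.46 to 1.55). It was higher in myCAFs than in iCAFs in every library, at 2535, 2444, 3896 and 3553 CPM against 1599, 2094, 2767 and 3279 CPM, the opposite order to Dcn. Of the UMIs of the 8 genes, Dcn took 53.8%, 44.2%, 39.8% and 24.1% and Bgn 42.2%, 45.1%, 43.4% and 62.3%, so WT/PBS was the library where Bgn outweighed Dcn most.

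Aspn was lower with D-CAN. It stood at 1.35, 45.4, 75.2 and 208 CPM in fibroblast-marker cells, 2.76-fold lower in D-CAN than in WT/PBS (interval 2.57 to 2.97). WT/PBS stood above the other libraries, and Pdgfrb-TK/PBS was lower than D-CAN, so against that control the D-CAN level was 1.66-fold higher. Within myCAFs, Aspn was at 115 CPM after D-CAN against 222 CPM for WT/PBS, 1.92-fold lower (1.77 to 2.09), and within iCAFs at 43.8 and 62.9 CPM. In pericytes it was 1.74-fold higher in D-CAN (1.30 to 2.34), at 551 against 317 CPM. The pericyte classes of D-CAN and WT/PBS held 22 and 46 cells. Their pericyte markers summed to 13302 and 8588 CPM, fibroblast markers to 3896 and 2268 CPM and KPC tumor markers to 68.3 and 1223 CPM. The part of these differences in the pericyte fold was not tested. Among fibroblast-marker cells with under 4 pericyte markers Aspn was 2.72-fold lower in D-CAN, and among cells thinned to 2000 UMIs it was 5.45-fold lower. KPC tumor cells held Aspn at 0.798 CPM with D-CAN and 2.01 CPM for WT/PBS.

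Ogn, which binds collagen and is also known as mimecan, lies on the far side of Omd from Aspn and differed the other way. It stood at 25.7, 39.7, 235 and 42.5 CPM in fibroblast-marker cells, 5.54-fold higher in D-CAN than in WT/PBS (5.14 to 5.97). D-CAN alone stood high, and the other libraries lay within 25.7 to 42.5 CPM. Ogn was higher in iCAFs (402 against 141 CPM, 2.84-fold, 2.40 to 3.39) and in myCAFs (95.8 against 37.8 CPM, 2.54-fold, 2.27 to 2.84). With the subset shares of WT/PBS the fold was 2.63.

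Prelp, a heparan sulfate-binding SLRP found near basement membranes, was higher in D-CAN in fibroblasts, endothelial cells and KPC tumor cells, the classes with enough UMIs to compare. It stood at 44.6, 52.8, 245 and 51.9 CPM in fibroblast-marker cells, 4.71-fold higher in D-CAN than in WT/PBS (4.40 to 5.05). The fold was 2.22 in iCAFs (1.85 to 2.68) and 4.73 in myCAFs (4.34 to 5.15), and 4.41 with the subset shares of WT/PBS. In endothelial cells Prelp was at 50.9 CPM after D-CAN (48 UMIs) against 2.86 CPM for WT/PBS (8 UMIs), 17.8-fold higher (8.34 to 43.6). In KPC tumor cells it was at 0.998 and 0.207 CPM, 4.81-fold higher (2.67 to 9.28), while Bgn was 2.35-fold lower and Dcn 1.26-fold lower in the KPC tumor cells of D-CAN. Prelp in KPC tumor cells was also higher after GCV, at 0.939 against 0.256 CPM with PBS (3.67-fold, 2.17 to 6.52). The KPC tumor level of Prelp was 0.408% of the fibroblast level in D-CAN and 0.399% in WT/PBS. It was 2.11% in Pdgfrb-TK/GCV and 0.485% in Pdgfrb-TK/PBS. Free RNA was not separated from these low levels, and its part in the folds was not tested.

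Lum and Fmod, which regulate the width of collagen fibrils, differed less with D-CAN. Lum stood at 89.2, 309, 619 and 393 CPM in fibroblast-marker cells, 1.58-fold higher in D-CAN than in WT/PBS (1.53 to 1.63). Fmod stood at 13.5, 40.1, 20.3 and 39.2 CPM, 1.93-fold lower in D-CAN (1.67 to 2.24). In myCAFs Fmod was at 40.7 CPM after D-CAN against 40.0 CPM for WT/PBS. In iCAFs it was lower, with 8 UMIs against 29 (1.48 and 28.1 CPM, 18.9-fold, 8.44 to 47.9), too few for the minimum of 50. With the subset shares of WT/PBS, where iCAFs are 5.07% of the cells, the fold was 0.963.

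Podn, which binds collagen and belongs to a separate class of the family, stood at 8.45, 25.8, 61.3 and 21.1 CPM in fibroblast-marker cells and was 2.91-fold higher in D-CAN than in WT/PBS (2.59 to 3.28). It was higher in iCAFs than in myCAFs in every library, at 13.9, 71.5, 91.2 and 73.5 CPM in iCAFs and 3.59, 11.1, 33.8 and 17.4 CPM in myCAFs. Within subsets the fold was 1.24 in iCAFs (0.973 to 1.60) and 1.94 in myCAFs (1.61 to 2.32), and with the subset shares of WT/PBS it was 1.76.

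Counted together, 4 of the 8 genes were at least 2-fold higher in D-CAN than in WT/PBS in fibroblast-marker cells (Dcn, Ogn, Prelp, Podn) and 1 was at least 2-fold lower (Aspn). Of 13386 genes with at least 50 UMIs in both libraries together, 15.4% were at least 2-fold higher and 8.83% at least 2-fold lower. The median log2 ratio was 0.90 over the 8 genes and 0.14 over all genes. Scaled so that the median gene had a ratio of 1, Dcn was 1.996-fold higher and Fmod, at 0.469, was past 2-fold lower. With the subset shares of WT/PBS, Ogn (2.63) and Prelp (4.41) alone were past 2-fold, and Dcn (1.08), Podn (1.76) and Aspn (0.525) were not. In iCAFs, 7 of the 8 genes had 50 UMIs and 2 (Ogn, Prelp) were at least 2-fold higher, where 31.2% of all genes were higher and 6.52% lower, so Ogn and Prelp are not set apart from the background there; against the median gene their iCAF folds were 1.99 and 1.55. With minimums of 200 and 1000 UMIs for the median, these iCAF folds were 2.17 and 2.41 for Ogn and 1.69 and 1.88 for Prelp. In myCAFs Ogn and Prelp were again the 2 that were higher, and 13.0% of all genes were higher and 9.40% lower.

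**Figure D4:**
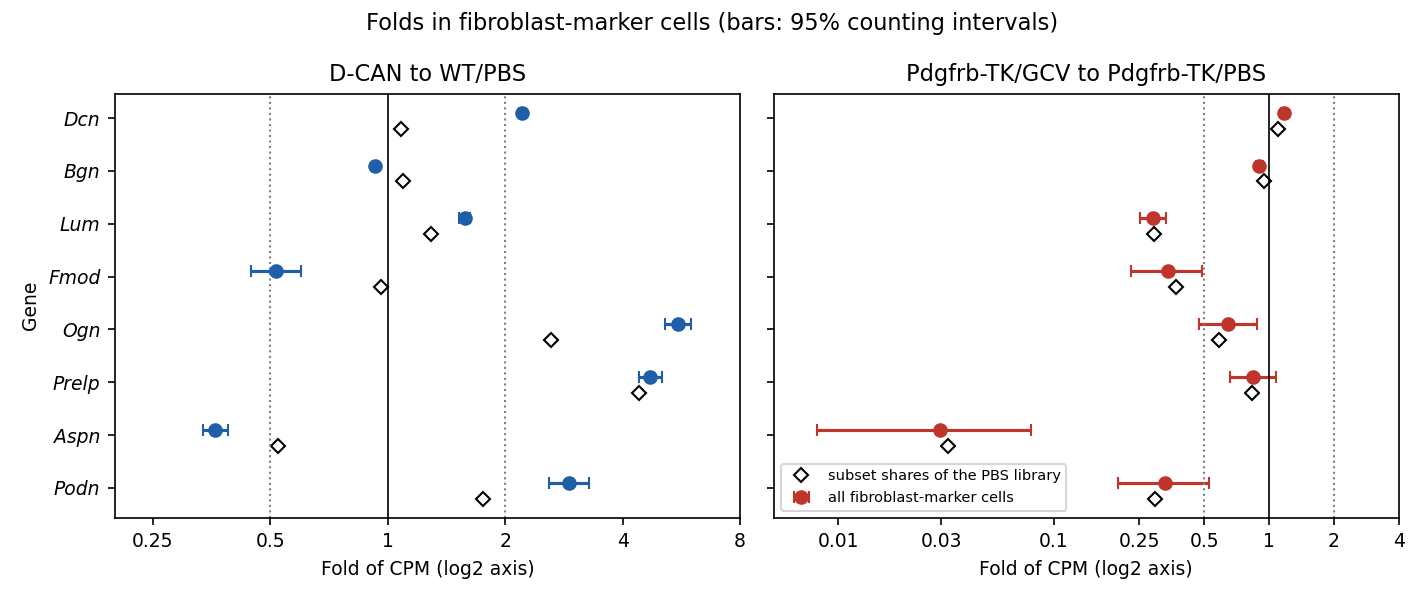
Fold of CPM in fibroblast-marker cells for each gene, treated library to the PBS library of its model, with 95% counting intervals (filled) and with the subset shares of the PBS library (open), on a log axis with dotted lines at 0.5 and 2. In D-CAN the Dcn fold goes from 2.21 to 1.08 and that of Fmod from 0.518 to 0.963, while Prelp stays at 4.41; after GCV the open and filled symbols lie close together.

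After GCV, Dcn stood near the level of the PBS control in the fibroblast-marker cells that remained, and 4 of the less abundant SLRPs were lower. Dcn was at 2461 CPM in Pdgfrb-TK/GCV and 2103 CPM in Pdgfrb-TK/PBS, 1.17-fold higher (interval 1.13 to 1.21). In iCAFs the fold was 0.965 (0.910 to 1.02) and in myCAFs 1.32 (1.24 to 1.40). These subset folds changed when class, subset and level were all taken from thinned cells of equal depth. Dcn in iCAFs was then lower after GCV, at 3726 CPM (3368 to 4113) against 4878 CPM (4546 to 5228). In myCAFs it was at 1306 CPM (1126 to 1506) against 1233 CPM (1114 to 1361), with intervals that overlap. Without thinning, Bgn in fibroblast-marker cells was at 1928 and 2147 CPM, a fold of 0.898 (0.865 to 0.932). Pdgfrb, whose promoter drives the kinase, was 4.15-fold lower (3.48 to 4.96). The fibroblast-marker cells of the 2 libraries differed in other ways too. Their median was 10788 UMIs per cell after GCV and 4759 with PBS. The 10 fibroblast markers summed to 11983 and 19338 CPM, the pericyte markers (9 and 10 of 10 detected) to 472 and 255 CPM, the macrophage markers (9 and 8 of 10) to 180 and 87.4 CPM, the KPC tumor markers (9 of 10 in both) to 664 and 1350 CPM and the B cell markers (7 and 4 of 10) to 71.3 and 340 CPM. Apart from the thinning, the part of these differences in the GCV results was not tested.

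Aspn was close to absent from fibroblast-marker cells after GCV. There were 4 Aspn UMIs in 239 fibroblast-marker cells and 118 in 443 fibroblast-marker cells of Pdgfrb-TK/PBS, 33.6-fold lower per UMI (interval 12.8 to 125). The size of the fold rests on few UMIs: with the gate on summed marker UMIs it was 13.2-fold lower, and against WT/PBS 154-fold lower. In myCAFs it was 3 UMIs against 105. Aspn in KPC tumor cells was at 0.519 CPM after GCV and 0.497 CPM with PBS, a fold of 1.04 (0.650 to 1.68), and KPC tumor cells carried 50.6% of the 83 Aspn UMIs of the GCV library and 17.5% of the 200 of its control. Cells with markers of several classes held 20 Aspn UMIs after GCV and 26 with PBS, and macrophages 10 and 1. The pericyte class could not be compared, with 1 cell after GCV.

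Lum, Fmod and Podn were lower after GCV too. Lum was 3.46-fold lower (3.01 to 3.99), at 89.2 against 309 CPM, and it was lower within iCAFs (163 against 583 CPM) and within myCAFs (99.0 against 210 CPM). Fmod was 2.96-fold lower (2.04 to 4.38) on 40 and 104 UMIs, and Podn 3.05-fold lower (1.90 to 5.05) on 25 and 67 UMIs. Ogn and Prelp were at 25.7 and 44.6 CPM after GCV and at 39.7 and 52.8 CPM with PBS.

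In counts, none of the 8 genes was at least 2-fold higher after GCV and 4 were at least 2-fold lower (Aspn, Lum, Fmod, Podn). Of 9229 genes, 2.29% were at least 2-fold higher and 5.09% lower. The median log2 ratio was -1.10 over the 8 genes and -0.11 over all genes. With GCV iCAF-marker and myCAF-marker shares that differed little from those of its control (25.1% and 21.4%, 40.6% and 48.8%), the subset shares of Pdgfrb-TK/PBS left all 4 of these more than 2-fold lower, between 0.0323 for Aspn and 0.368 for Fmod. In cells thinned to 2000 UMIs the folds were 0.0373 for Aspn, 0.279 for Lum, 0.287 for Fmod and 0.516 for Podn, and Lum alone of these 4 was past 2-fold with 50 UMIs.

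The PBS libraries of the 2 models differed from each other too, in mice that received neither treatment. The mice differ in the transgene, and the paper gave PBS intraperitoneally to Pdgfrb-TK mice and subcutaneously to the controls of D-CAN. Their matrices list 32285 and 32290 features. These differences cannot be told apart here. Dcn was at 2103 CPM in Pdgfrb-TK/PBS and 1345 CPM in WT/PBS, 1.56-fold higher (1.52 to 1.61). Aspn was 4.58-fold lower (3.81 to 5.54) and Bgn 1.62-fold lower (1.58 to 1.66). Of the 8 genes, Aspn alone was past 2-fold, and of 12500 genes 12.0% were at least 2-fold higher and 10.4% lower. Ogn and Prelp were at 39.7 and 42.5 CPM and at 52.8 and 51.9 CPM, with intervals of the fold that include 1 (0.754 to 1.15 and 0.845 to 1.21). Against Pdgfrb-TK/PBS in place of WT/PBS, the D-CAN library was 1.41-fold higher in Dcn.

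Genes that build the sugar chains of SLRPs, bind their cores or cut them were read from lists, each by its members with 50 UMIs in fibroblast-marker cells. D-CAN is set against WT/PBS, and the part of the subset make-up in the list folds was not tested. Of all genes, 15.4% were at least 2-fold higher and 8.83% lower in D-CAN, and 2.29% and 5.09% after GCV, and with lists this short the counts that follow are descriptions of the genes named and set no list apart. Of 7 genes for the linkage of the chain to the core, D-CAN was at least 2-fold higher in Pxylp1, a xylose phosphatase needed for chain growth (15.8 against 7.65 CPM), lower in Xylt1, a xylosyltransferase that starts the chain (24.2 against 55.8 CPM), and past 2-fold in neither direction for the other 5. In Pdgfrb-TK/PBS, Xylt1 was at 11.9 CPM, below its level in D-CAN, and Pxylp1 at 17.3 CPM, slightly above its level in D-CAN. Neither direction thus held against that control. After GCV none of the 7 was past 2-fold. Of 13 chondroitin and dermatan sulfate genes measured, Chst12, a chondroitin 4-O-sulfotransferase, was 2.60-fold higher in D-CAN (2.26 to 2.99), and after GCV Chst11, another 4-O-sulfotransferase, was 2.08-fold higher (1.90 to 2.29) and Csgalnact1, which starts chondroitin chains, 2.14-fold lower. Chst12 was at 40.7 CPM in D-CAN, 15.7 CPM in WT/PBS and 33.9 CPM in Pdgfrb-TK/PBS. None of the keratan sulfate genes measured (3 in D-CAN and 1 after GCV) was past 2-fold.

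Among 14 partners and receptors of SLRPs, 1 was at least 2-fold higher in D-CAN and 3 were lower, beside 15.4% and 8.83% of all genes. Col14a1, a fibril-associated collagen that binds decorin, was at 332 CPM after D-CAN against 147 CPM for WT/PBS. It was lower after GCV, at 26.0 CPM against 77.8 CPM in Pdgfrb-TK/PBS. Tgfb2, a TGF-β ligand, was 3.20-fold lower in D-CAN, and Met, the hepatocyte growth factor receptor, 2.86-fold lower. Kdr, a VEGF receptor that was also an endothelial marker of the gate, was 2.41-fold lower. Relative to WT/PBS, summed KPC tumor markers were also lower in the fibroblast-marker cells of D-CAN (466 against 1267 CPM). The part of tumor cell RNA in the Met fold was not tested. In Pdgfrb-TK/PBS, Tgfb2 was at 128, Met at 14.6 and Kdr at 8.09 CPM, against 101, 7.94 and 3.43 CPM in D-CAN. Tgfb2 in WT/PBS was at 322 CPM, far above both. After GCV, 12 partners were measured and Col14a1 was the 1 past 2-fold.

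Proteases that cut SLRP cores differed in both directions with D-CAN, 3 of 8 higher and 3 lower, beside the same 15.4% and 8.83% of all genes. Adamts5 (259 against 73.4 CPM), Adamts4 (78.8 against 29.6 CPM), both aggrecanases, and Mmp3, stromelysin, (483 against 202 CPM) were higher. Mmp13, a collagenase, was at 11.5 against 103 CPM, Tll1, a relative of Bmp1, at 3.68 against 27.2 CPM, and Mmp9, a gelatinase, at 2.01 against 7.33 CPM. In Pdgfrb-TK/PBS, Adamts5 was at 89.0, Adamts4 at 29.3 and Mmp3 at 66.6 CPM. Mmp13 was at 18.1, Tll1 at 33.1 and Mmp9 at 7.70 CPM there. Each direction held against that control, but Mmp13 in WT/PBS stood far above both D-CAN and Pdgfrb-TK/PBS. Bmp1, which processes the biglycan and osteoglycin precursors, was at 349 and 392 CPM. After GCV none of 7 measured was past 2-fold.

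Of 10 other SLRP genes, 6 had 50 UMIs in the D-CAN comparison and all were low. Ecm2, the neighbor of Aspn on its other side, was at 23.2 CPM after D-CAN against 9.49 CPM for WT/PBS, 2.45-fold higher (2.04 to 2.95), and Chadl, a chondroadherin-like protein, was at 4.10 and 1.94 CPM, 2.12-fold higher. Omd, which lies between Aspn and Ogn, was at 0.836 and 2.30 CPM, 2.76-fold lower (1.38 to 6.09). Epyc, the cartilage SLRP epiphycan, lies beyond Lum and Kera on chromosome 10. It had 0 UMIs after D-CAN against 54 for WT/PBS. That is at least 9.92-fold lower when 3 counts are taken as the limit for the library at 0. Epyc also had 0 UMIs in Pdgfrb-TK/PBS and 2 in Pdgfrb-TK/GCV, where fibroblast-marker cells held fewer UMIs in total. Along chromosome 13 the order Ecm2, Aspn, Omd, Ogn thus read higher, lower, lower, higher against WT/PBS. Against Pdgfrb-TK/PBS this order did not hold, as Aspn was 1.66-fold higher in D-CAN. Omd had 0 UMIs in Pdgfrb-TK/PBS and 10 in D-CAN, too few to compare.

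Over 24 combinations of class and library with at least 50 cells, the genes whose log2(CPM + 1) ran most like that of Dcn were Lrrn2, Vgll3, Col3a1, Cd248 and Ccdc80, with Pearson's r of 0.968, 0.967, 0.967, 0.963 and 0.963. Most like Bgn were Col3a1, Col5a2 and Serping1, with r of 0.955, 0.948 and 0.944. Col3a1 was a gate marker for fibroblasts. Among the 8 genes, r with Dcn was 0.943 for Bgn and lowest for Aspn, at 0.774. The points share libraries and classes and are not independent, so these are descriptions.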

How the data were processed

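Single-cell RNA-seq (10x) of 4 pooled tumor suspensions was read from the matrices that the authors deposited, as UMI counts per gene and cell barcode on mm10, not normalized. Per the file headers Cell Ranger 7.0.0 made them, and the submitters' processing notes name Cell Ranger and STAR 2.6. No column was left unused (0), the data hold no doublet calls, and doublets were kept. Cells with at least 200 genes were assigned to 1 of 8 classes, each with 10 markers, where at least 3 markers of the class were detected and their share was at least 1.5 times that of the next class. Fibroblast-marker cells were split by the subset with most markers (at least 2, no tie). Counts were summed per class and library and divided by all UMIs of the class (CPM). Levels have exact Poisson, shares Clopper-Pearson, and folds exact conditional binomial intervals. Genes needed 50 UMIs over both libraries to be counted against a fold of 2. The genes named are the 8 SLRPs, list genes past 2-fold and the genes most like Dcn and Bgn, beside Pdgfrb; Bmp1, within 2-fold, was named after its values were seen. Alternatives were other gates, filters, scalings, thinning to 2000 UMIs (shallower cells left out) and the other PBS library. The members and lists were chosen with earlier results of these data known. Python 3.11.15, numpy 2.4.6, scipy 1.17.1 and pandas 2.3.3 were used, and the fold calculation was tested on simulated data.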

Additional observations from a re-analysis of the deposited data

Results flagged for a closer look

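Scaled by all UMIs of the class, the folds of D-CAN to WT/PBS went in opposite directions in the fibroblast subsets for the most abundant members. Dcn had a fold of 0.912 in iCAF-marker cells and 1.10 in myCAF-marker cells, and Bgn had 0.844 and 1.10. There is 1 library on each side, and the difference was not tested.

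The D-CAN and WT/PBS matrices list 5 features for GFP and Tdtomato that the Pdgfrb-TK matrices do not hold. They carried 1284 UMIs after D-CAN against 3856 UMIs for WT/PBS, and no comparison here used them.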

How the results depend on the processing

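The Dcn fold of D-CAN to WT/PBS in fibroblast-marker cells (2.21) was 2.25 without cells over 20% mitochondrial UMIs, 2.04 with markers at least 2 times those of the next class, 2.05 with a gate on summed marker UMIs, 2.16 without the 5% of cells with the most UMIs, 2.12 scaled outside mitochondrial and ribosomal protein genes, 1.996 scaled to the median gene and 1.41 against Pdgfrb-TK/PBS. Added after seeing the data, it was 2.28 without cells of at least 4 pericyte markers and 1.08 with the subset shares of WT/PBS. The Dcn fold of GCV to its PBS (1.17) was 1.07 in thinned cells, 1.26 scaled to the median gene, 1.83 against WT/PBS and 1.10 with the subset shares of its PBS. The members past 2-fold were 5 in D-CAN, and 2 with the subset shares of WT/PBS, and 4 after GCV, and 1 in thinned cells, where fewer UMIs leave fewer members above 50. The Aspn fold of D-CAN turned from 0.362 to 1.66 with Pdgfrb-TK/PBS as control. The share of all genes past 2-fold in D-CAN was 24.3%, against 41.8% with a minimum of 1 UMI and 18.8% with 200, and after GCV it was 7.38%, 32.1% and 5.26%. Depth limits Aspn, Fmod and Podn after GCV most, on 4 to 40 UMIs. No paired analysis was possible because each group has 1 library.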
